A study of Homo sapiens with 9 samples.

Results

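Intraflagellar transport and BBSome genes encode the machinery that builds the primary cilium, the antenna-like organelle on the surface of many cells, and that carries membrane proteins in and out of it. A list of 45 such genes was described here in MDA-MB-231, a mesenchymal-like line of triple-negative breast cancer cells. Probe sets were taken where the array annotation maps them to 1 symbol only, under the current or an older name, and of several probe sets the one with the brightest mean over all arrays stood for the gene. This gave values for 44 of the 45 genes, from 107 probe sets, among 19775 genes measured in all. The exception was TTC21B, a subunit of the IFT-A complex, whose probe set also matches a second symbol and is not used. The list was chosen by pathway, after cilium genes had been seen among those higher with the mimics on these arrays, so it was selected on the same differences between mimics and AllStar, and its counts against AllStar describe the pathway and are no independent evidence of its direction.

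The groups were cells given Qmimic, cells given Dmimic and cells given AllStar, a negative control RNA, with 3 replicates each. All were transfected with Lipofectamine at 10 nM and 600000 cells per well, and total RNA was taken after 48 h. According to the series title, the microRNA miR-34a targets AXL, a receptor tyrosine kinase, but the labels do not say what Q and D stand for and give no mimic sequence. All wells, AllStar included, received the reagent and a small RNA, untransfected cells were not analysed here, and all wells are of 1 cell line, so the p-values measure the spread between wells of that line. AXL was lower on all 6 mimic arrays on both of its probe sets: the brighter read 11.54, 11.85 and 11.83 with Qmimic and 11.77, 11.83 and 11.55 with Dmimic, against 12.27, 12.31 and 12.76 with AllStar (log2 signal).

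One control array, AllStar replicate 3, was unlike the rest. Its 18S ribosomal RNA probe sets averaged 8.73, where the rest gave 5.27 to 6.26, and it correlated with the rest at 0.974 to 0.981, where they correlated among themselves at 0.993 to 0.998. The members read low on it: 43 of the 44 were below the mean of AllStar replicates 1 and 2, by a median of 0.49 on the log2 scale. The 6980 genes of like level (a mean log2 signal between 6.53 and 9.47) were lower there by a median of 0.38. Results are therefore given with all 9 arrays and without that array. Of the markers of this line, 5 of 6 listed as high were measured, at mean log2 levels of 11.97 to 13.66, while the 6 listed as low lay between 3.33 and 8.59. Not all of the latter were dim: over the 9 arrays ERBB2 read 8.11 to 8.78 and GATA3 7.45 to 8.61. Markers of multiciliated cells, 6 of 7 measured, averaged 5.29 to 5.36 on the Qmimic arrays, 5.30 to 5.43 on the Dmimic arrays and 5.33 to 5.72 on the AllStar arrays, and 0 of them were called. The lists for luminal epithelium, leukocytes, endothelium and fibroblasts also gave 0 calls.

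Cargo travels up a cilium on trains of the IFT-B complex, drawn by kinesin-2, and back down with the IFT-A complex on dynein-2. The BBSome, a coat-like complex assembled with the help of chaperonin-like BBS proteins, links membrane receptors to these trains and takes them out of the cilium. Cells usually carry a primary cilium when they are not dividing, many breast cancer lines have few cilia, and RFX transcription factors are known to drive many of these genes through a promoter element called the X-box. In RNA pooled over a well, more cells carrying a cilium and more RNA of these genes per cell cannot be told apart.

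The promoters below show GTTGCC, the shorter RFX motif within the X-box, in the 4 called members that hold it, and a full X-box in IFT57. Of the 8 called members with a promoter in the tables the other 4, KIF3A, WDR19, BBS12 and LZTFL1, do not hold GTTGCC, beside 17 of all 41 members with a promoter that do. Sequences are from RefSeq on GRCh38.p14 and run from 250 bases before to 50 bases after the annotated start. They lie at chr2:43773789-43774088 for DYNC2LI1, chr16:3500754-3501053 for CLUAP1, chr12:110124107-110124406 for IFT81 and chr13:20566907-20567206 for IFT88, all on the plus strand, and at chr3:108222375-108222674 on the minus strand for IFT57. Capitals mark the GTTGCC motif, read on either strand, or for IFT57 the X-box.
DYNC2LI1: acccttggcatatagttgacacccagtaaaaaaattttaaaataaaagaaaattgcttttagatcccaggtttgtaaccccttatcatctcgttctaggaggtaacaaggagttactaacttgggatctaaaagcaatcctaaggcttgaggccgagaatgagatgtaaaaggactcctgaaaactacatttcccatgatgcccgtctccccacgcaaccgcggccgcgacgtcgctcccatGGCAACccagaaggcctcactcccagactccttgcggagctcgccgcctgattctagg
CLUAP1: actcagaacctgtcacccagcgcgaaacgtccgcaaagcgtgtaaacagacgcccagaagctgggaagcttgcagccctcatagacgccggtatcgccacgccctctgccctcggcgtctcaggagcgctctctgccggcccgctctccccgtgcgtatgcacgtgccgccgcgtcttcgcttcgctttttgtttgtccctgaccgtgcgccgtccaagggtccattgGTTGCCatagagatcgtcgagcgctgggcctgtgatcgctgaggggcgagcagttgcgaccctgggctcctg
IFT81: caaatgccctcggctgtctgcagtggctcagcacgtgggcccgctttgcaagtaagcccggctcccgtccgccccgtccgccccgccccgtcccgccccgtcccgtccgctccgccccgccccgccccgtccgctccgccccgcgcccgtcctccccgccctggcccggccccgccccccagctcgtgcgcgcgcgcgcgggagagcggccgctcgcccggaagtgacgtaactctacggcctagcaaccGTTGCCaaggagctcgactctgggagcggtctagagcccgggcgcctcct
IFT88: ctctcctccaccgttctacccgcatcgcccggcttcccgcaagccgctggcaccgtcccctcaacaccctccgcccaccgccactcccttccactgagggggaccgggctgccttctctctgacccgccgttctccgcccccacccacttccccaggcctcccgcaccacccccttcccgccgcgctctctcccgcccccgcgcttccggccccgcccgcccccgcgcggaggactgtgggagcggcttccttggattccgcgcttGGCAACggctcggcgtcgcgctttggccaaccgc
IFT57: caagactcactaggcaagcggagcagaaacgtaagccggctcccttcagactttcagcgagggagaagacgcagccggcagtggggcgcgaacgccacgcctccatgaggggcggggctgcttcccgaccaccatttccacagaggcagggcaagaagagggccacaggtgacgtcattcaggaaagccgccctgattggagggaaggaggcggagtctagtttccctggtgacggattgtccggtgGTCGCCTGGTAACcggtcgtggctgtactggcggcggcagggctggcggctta
The first base of the motif lay 22 bases before the start in CLUAP1 and 8 before it in DYNC2LI1, where it reads GGCAAC. It lay at the start itself in IFT81 (base 1) and at base 17 after it in IFT88, where it again reads GGCAAC.

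A RefSeq promoter was found for 41 of the 44 members, all but BBS9, IFT22 and WDR35. On either strand, GTTGCC occurred in 17 of the 41 (41.5%), against 12.2% of all 27305 promoters of this length. For each RefSeq gene these hold the first start listed on a main chromosome. They were not limited to genes measured here, nor matched to the members in base composition. The X-box, searched as a pattern, occurred in 3 (7.32%), those of IFT57, IFT122 and KIF17, against 1.3% of all. In IFT122 and KIF17 the X-box contains the shorter motif. The CCAAT box occurred in 46.3% of the members' promoters against 35.7% of all, and the GC box GGGCGG in 65.9% against 44.6%. In CLUAP1 and IFT27 the RFX motif overlaps a CCAAT box. A match is a description of these letters and not a bound site. Members with GTTGCC had a median change of 0.35 with both mimics, between -0.09 and 1.43, and the 24 without it a median of 0.28, between -0.25 and 1.08 (log2, without AllStar replicate 3). The 2 ranges overlapped over most of their width. The 3 X-box genes did not include a called one, with changes of 0.41 for IFT57, 0.04 for IFT122 and -0.09 for KIF17. KIF17 was dim, with a mean log2 signal of 5.25, and 1 of the 3 IFT122 probe sets had a change above 0.

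The microRNA in the series title, miR-34a-5p, is encoded at chr1:9151735-9151756 on the minus strand of GRCh38.p14, and its mature sequence is shown with the seed, bases 2 to 8, in capitals. Whether either mimic carries it is not stated in the labels.
miR-34a-5p: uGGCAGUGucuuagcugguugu

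The comparison of each mimic with AllStar asks which members differed between cells given that mimic and cells given the control RNA. A gene was called when its limma adjusted p was under 0.05 over all 54613 probe sets tested and its change at least 1.5-fold. With all 9 arrays, 3 of 44 members (6.82%) were called higher over both mimics together, the dynein-2 light intermediate chain DYNC2LI1, the kinesin-2 motor KIF3A and the IFT-B subunit CLUAP1, where 0.116% of all genes were. These 3 calls were lost when any 1 array other than AllStar replicate 3 was left out. They were also lost under median centring and with the replicate number fitted as a block. With the mean of all probe sets of a gene as its value, KIF3A and CLUAP1 lost the call. DYNC2LI1 kept it there, and LZTFL1 gained it. Against AllStar, Qmimic alone gave 0 members (0% of all genes) and Dmimic alone 0 (0.0101% of all genes). An unadjusted limma p under 0.05 was found for 29 of 44 members with Qmimic and 32 with Dmimic. Of all 19775 genes, 3900 and 3425 had one. Without AllStar replicate 3, 9 members (20.5%) rose with Dmimic, where 0.622% of all genes did, and 3 with Qmimic (0.44% of all genes). The 9 members were IFT22, IFT81, IFT88, CLUAP1, WDR19, KIF3A, DYNC2LI1, BBS12 and LZTFL1, and they were also the 9 called over both mimics together (0.597% of all genes). The 3 called with Qmimic, KIF3A, DYNC2LI1 and LZTFL1, were all among the 9. No member fell in any mimic comparison. Without AllStar replicate 3, 0.253% of all genes fell with Qmimic, 0.647% with Dmimic and 0.445% over both mimics, and with all 9 arrays 0.0152% fell over both mimics.

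Many members that were not called also read higher with the mimics. All 6 mimic arrays lay above all 3 AllStar arrays for 31 of 44 members (70.5%), where 12.8% of all genes showed this. The count was again 31 without AllStar replicate 3, against 14.8% of all genes. AllStar replicate 3 was the highest AllStar array for 0 members, against 42% of all genes. The change with both mimics was above 0 for 42 members with all 9 arrays and for 38 without AllStar replicate 3. ARL3, ARL6, KIFAP3 and MKKS were above 0 in the first fit and below 0 in the second. Among genes of like level 69.2% were above 0 in the first fit and 57.1% in the second, and among all genes 47.1% and 49.7%. The median change with both mimics was 0.48 over the members (log2), -0.02 over all genes and 0.13 over the genes of like level with all 9 arrays. Without AllStar replicate 3 these medians were 0.34, -0.00 and 0.03. The members' median was 0.31 with Qmimic and 0.35 with Dmimic in that fit, where the genes of like level were at 0.04 and 0.02. Signs of RNA quality also differed, for Qmimic against AllStar replicates 1 and 2. The difference between 3' and 5' probe sets was 0.19 to 0.20 for GAPDH on the Qmimic arrays and 0.13 to 0.25 on the Dmimic arrays, against 0.14 on AllStar replicates 1 and 2 and 0.26 on AllStar replicate 3 (log2). For ACTB it was 0.34 to 0.42 with Qmimic and 0.23 to 0.31 with Dmimic, against 0.25 to 0.27 on AllStar replicates 1 and 2 and 0.36 on AllStar replicate 3. The 18S probe sets averaged 5.82 to 6.17 with Qmimic and 5.46 to 6.26 with Dmimic, against 5.27 to 5.66 on AllStar replicates 1 and 2. Qmimic thus lay wholly above those 2 AllStar arrays in all 3 measures, and Dmimic overlapped them in each. AllStar replicate 3 lay above every Qmimic array for GAPDH and 18S (8.73) and within the Qmimic range for ACTB. The part of RNA quality in the members' values was not tested.

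By adjusted p alone, with no minimum fold, 8 of 44 members passed upwards with Qmimic without AllStar replicate 3 (1.32% of all genes), 16 with Dmimic (1.79% of all genes) and 18 over both mimics (2.49% of all genes).

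**Figure D1:**
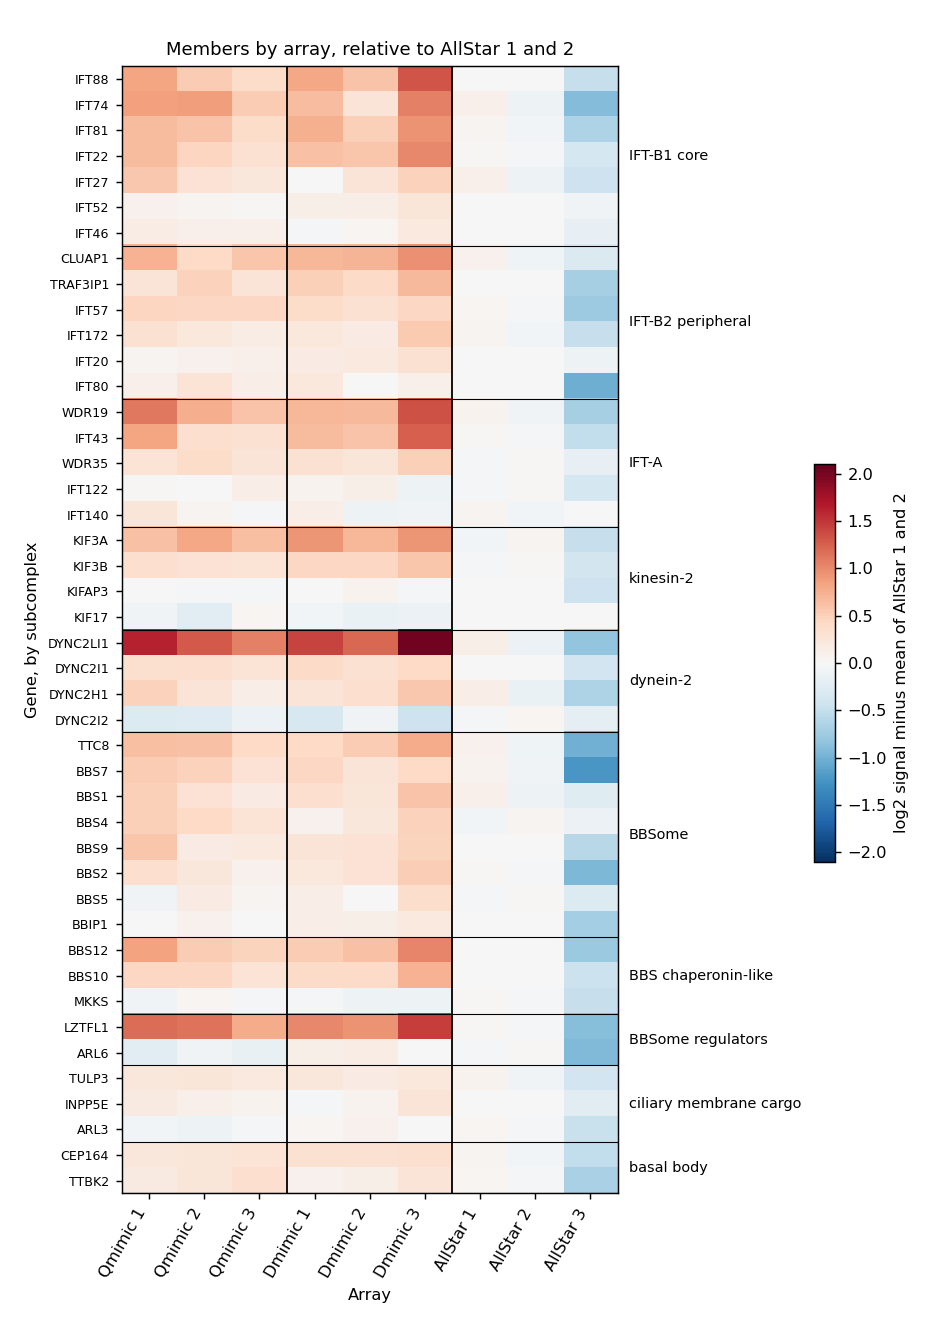
Log2 signal of the 44 members (rows, by subcomplex) on the 9 arrays (columns), as the difference from the mean of AllStar replicates 1 and 2; red is higher and blue lower. Most rows are red on all 6 mimic arrays, with DYNC2LI1 and LZTFL1 deepest, and 43 of 44 members are below 0 on AllStar replicate 3.

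Among the motors, the dynein-2 light intermediate chain DYNC2LI1, needed for transport back from the ciliary tip, had the largest change of the list. Its log2 signal was 8.36, 8.03 and 7.80 with Qmimic and 8.16, 7.95 and 8.77 with Dmimic, against 6.88, 6.62 and 5.92 with AllStar. The lowest mimic array was 0.92 above the highest AllStar array. The change with both mimics was 3.27-fold with all 9 arrays (log2 1.71, SE 0.23, limma adjusted p = 0.042), and without AllStar replicate 3 it was 2.70-fold (log2 1.43, SE 0.20, adjusted p = 0.0101). The other dynein-2 subunits had smaller changes, or 1 of the opposite sign. A change given for a member with no comparison named is the log2 difference of both mimics minus AllStar without AllStar replicate 3. The intermediate chain DYNC2I1 read 7.48, 7.49 and 7.43 with Qmimic and 7.54, 7.47 and 7.55 with Dmimic, against 7.14, 7.14 and 6.74 with AllStar, so that all mimic arrays were higher. Its change was 0.35 without AllStar replicate 3 (adjusted p = 0.0162), below 1.5-fold. The heavy chain DYNC2H1, which carries the motor activity, was at 0.35 as well (adjusted p = 0.117). DYNC2I2, the second intermediate chain, had the lowest change of the list, at -0.25 (adjusted p = 0.17), and in the 8 other arrays all mimic values lay below both AllStar values, as in 11.5% of all genes.

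Kinesin-2 drives trains towards the tip with the motor pair KIF3A and KIF3B and the accessory subunit KIFAP3. KIF3A had log2 signals of 7.19, 7.39 and 7.21 with Qmimic and 7.51, 7.28 and 7.50 with Dmimic, against 6.52, 6.63 and 6.09 with AllStar. The groups did not overlap, and the gap between them was 0.57. Its change with both mimics was 1.91-fold with all 9 arrays (log2 0.93, SE 0.12, limma adjusted p = 0.0401) and 1.71-fold without AllStar replicate 3 (log2 0.77, SE 0.08, adjusted p = 0.00398), the smallest adjusted p of the list over both mimics in each fit. KIF3B was also higher on all 6 mimic arrays, by 0.40 (adjusted p = 0.0153), below 1.5-fold. KIFAP3 was at -0.00 (adjusted p = 0.986) and KIF17, the motor of a separate kinesin-2, at -0.09 (adjusted p = 0.543). Differences between these subunits were not tested.

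The IFT-B core, the part of the train that binds tubulin and holds the complex together, had the highest median of the subcomplexes with more than 3 measured genes, 0.61 over 7 genes without AllStar replicate 3, and 3 of them rose. IFT88, long known from mouse mutants that lack cilia, had log2 signals of 8.79, 8.49 and 8.34 with Qmimic and 8.78, 8.56 and 9.29 with Dmimic, against 7.95, 7.97 and 7.47 with AllStar. IFT81, which binds tubulin together with IFT74, read 8.85, 8.79 and 8.57 with Qmimic and 8.93, 8.68 and 9.12 with Dmimic, against 8.25, 8.12 and 7.54 with AllStar. The small GTPase-like subunit IFT22 read 9.19, 8.98 and 8.86 with Qmimic and 9.15, 9.11 and 9.54 with Dmimic, against 8.56, 8.50 and 8.16 with AllStar. In all 3 genes every mimic array was above every AllStar array, as in 12.8% of all genes. Dmimic replicate 3 was the highest array in all 3.

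Without AllStar replicate 3, IFT88 was 1.88-fold higher with Dmimic (limma adjusted p = 0.0378) and 1.49-fold with Qmimic (adjusted p = 0.138). IFT81 was 1.65-fold higher with Dmimic (adjusted p = 0.0237) and 1.47-fold with Qmimic (adjusted p = 0.0594). IFT22 was 1.66-fold higher with Dmimic (adjusted p = 0.0255) and 1.39-fold with Qmimic (adjusted p = 0.0938). None of these 3 passed with all 9 arrays, where their adjusted p over both mimics was 0.068 for IFT88, 0.0637 for IFT81 and 0.0605 for IFT22. IFT74, the partner of IFT81, had a change of 0.71 with both mimics (SE 0.17) and an adjusted p of 0.0545. The remaining core genes IFT27, IFT52 and IFT46 had changes of 0.31, 0.11 and 0.10.

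The peripheral IFT-B genes had smaller changes, with a median of 0.34 over 6 genes. In all 6 every mimic array was above every AllStar array, where 12.8% of all genes showed this. CLUAP1, also called IFT38, was the only one called. It read 7.97, 7.66 and 7.84 with Qmimic and 7.95, 7.96 and 8.21 with Dmimic, against 7.33, 7.17 and 6.94 with AllStar. Its change with both mimics was 1.72-fold with all 9 arrays (log2 0.78, SE 0.11, limma adjusted p = 0.0431) and 1.61-fold without AllStar replicate 3 (adjusted p = 0.0114). With Qmimic alone its adjusted p was 0.0348 at 1.49-fold, just under the fold threshold. IFT57 and TRAF3IP1 passed on adjusted p but not on size, at 0.41 (adjusted p = 0.012) and 0.43 (adjusted p = 0.0298). IFT80 was the lowest, at 0.15. Its lowest mimic array was 0.003 above its highest AllStar array, and 2 of its 4 probe sets had a change above 0.

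In the IFT-A complex, which returns trains to the base and admits membrane proteins to the cilium, 5 of 6 genes were measured and WDR19 rose. WDR19, also called IFT144, read 9.69, 9.35 and 9.17 with Qmimic and 9.28, 9.25 and 9.91 with Dmimic, against 8.64, 8.51 and 7.89 with AllStar. It was 1.87-fold higher with Dmimic (limma adjusted p = 0.0443) and 1.77-fold with Qmimic (adjusted p = 0.0639) without AllStar replicate 3. With all 9 arrays it was 2.13-fold higher over both mimics (adjusted p = 0.0637), a larger change with a wider spread. The peripheral subunit IFT43 was just outside the call, at 0.67 (adjusted p = 0.0669), and WDR35 was at 0.34 (adjusted p = 0.0417). IFT122 and IFT140, 2 core subunits, were both at 0.04, with mimic and AllStar arrays that overlapped.

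**Figure D2:**
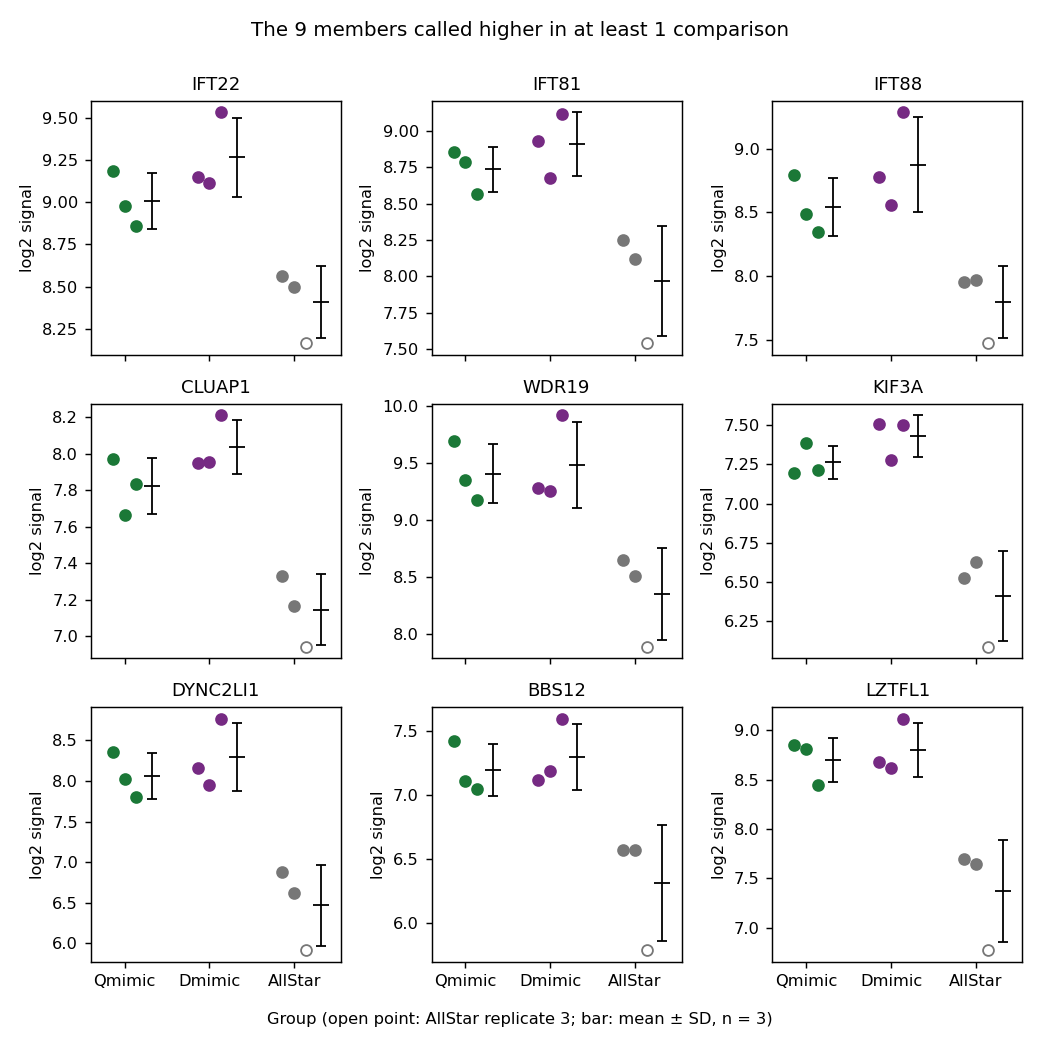
Log2 signal of the 9 called members on each array, with Qmimic, Dmimic and AllStar from left to right; bars are the mean ± SD of 3 arrays and the open point is AllStar replicate 3. In all 9 genes every mimic array is above every AllStar array, as in 12.8% of all genes, and AllStar replicate 3 is the lowest point.

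Of the 8 BBSome subunits none was called, and all 8 had a change above 0, as 57.1% of genes of like level did. Their median was 0.34. TTC8, the subunit also called BBS8, was nearest to the threshold with 0.56 (limma adjusted p = 0.0238). It read 8.89, 8.88 and 8.68 with Qmimic and 8.68, 8.80 and 9.05 with Dmimic, against 8.36, 8.17 and 7.25 with AllStar, without overlap. BBS7 was at 0.41 (adjusted p = 0.0294), and AllStar replicate 3 read it 1.22 below the other AllStar arrays, the largest such gap of the list. BBS5 and BBIP1 had overlapping groups and changes of 0.11 and 0.09. BBS5 was also the dimmest member, with a mean log2 signal of 4.66.

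Of the chaperonin-like proteins that help to assemble the BBSome, BBS12 rose and MKKS, also called BBS6, did not. BBS12 read 7.42, 7.11 and 7.04 with Qmimic and 7.11, 7.18 and 7.59 with Dmimic, against 6.57, 6.57 and 5.79 with AllStar. It was 1.65-fold higher with Dmimic (limma adjusted p = 0.0355) and 1.54-fold with Qmimic (adjusted p = 0.0625) without AllStar replicate 3, and its adjusted p over both mimics was 0.0735 with all 9 arrays. BBS10 was at 0.45 (adjusted p = 0.0319). MKKS, the brightest member with a mean log2 signal of 10.25, was at -0.06 (adjusted p = 0.682).

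LZTFL1, which holds back BBSome entry into the cilium, had the second largest change of the list. It read 8.85, 8.81 and 8.45 with Qmimic and 8.68, 8.61 and 9.11 with Dmimic, against 7.69, 7.65 and 6.77 with AllStar. The lowest mimic array was 0.75 above the highest AllStar array. It rose 2.04-fold with Qmimic (log2 1.03, SE 0.15, limma adjusted p = 0.0155) and 2.19-fold with Dmimic (log2 1.13, SE 0.15, adjusted p = 0.0123) without AllStar replicate 3. With all 9 arrays it was 2.60-fold higher over both mimics at an adjusted p of 0.052, just outside the call. ARL6, the GTPase that brings the BBSome to membranes, was at -0.02 and its groups overlapped. The membrane cargo genes TULP3, INPP5E and ARL3 were at 0.22, 0.11 and -0.01, and the basal body genes CEP164 and TTBK2, which act when a cilium starts to form, at 0.29 and 0.21. Of these 5, CEP164 passed on adjusted p alone (0.0305).

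**Figure D3:**
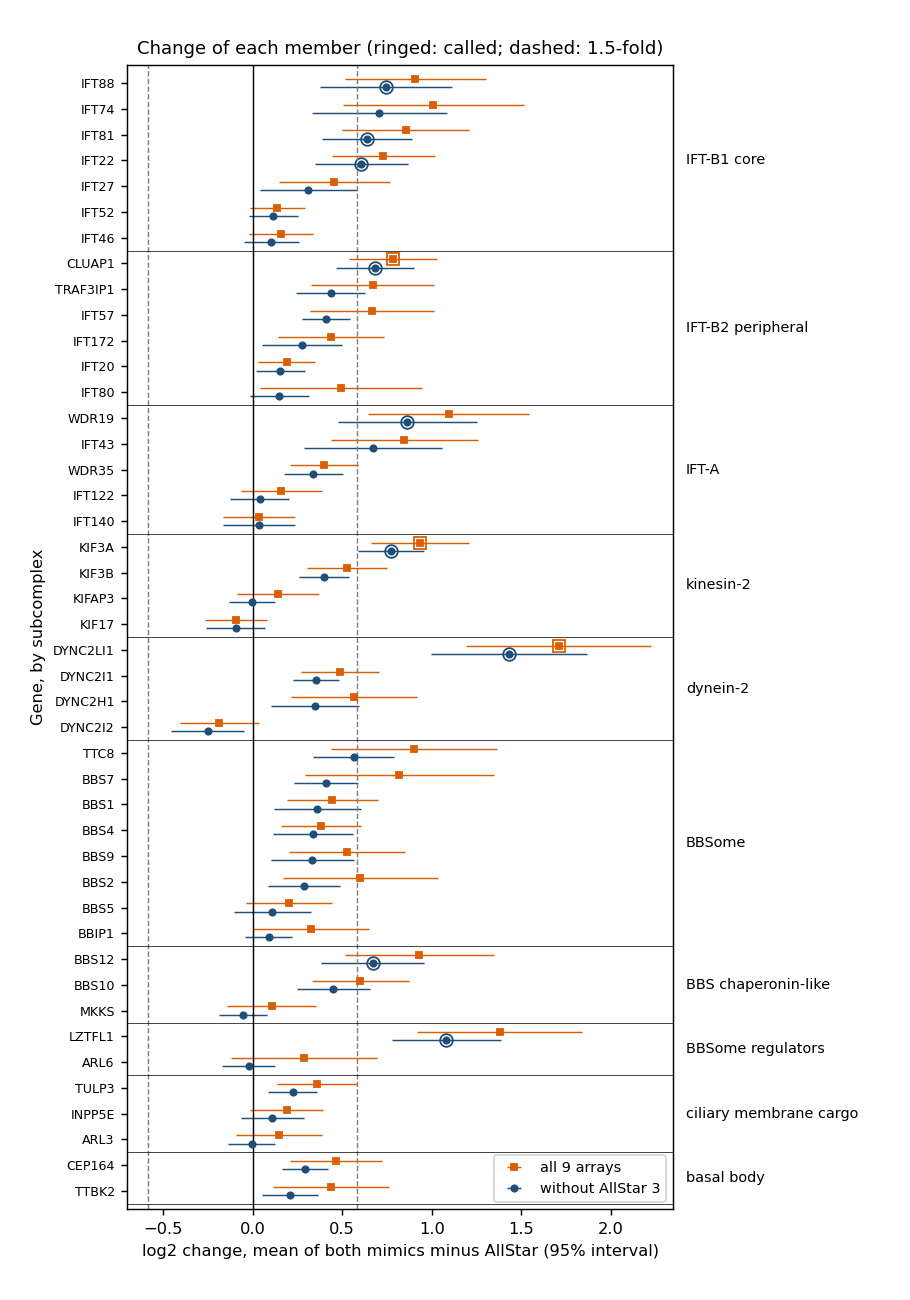
Log2 change of each member, mean of both mimics minus AllStar, with its 95% interval from limma, with all 9 arrays (orange squares) and without AllStar replicate 3 (blue circles). Ringed points are called and dashed lines mark 1.5-fold; the called genes are spread over 7 of the 10 subcomplexes, and DYNC2I2 is the lowest at -0.25 without that array.

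Thresholds did not fall in a gap between members. Just inside were IFT22 at 0.61 and IFT81 at 0.64 without AllStar replicate 3, and just outside by size was TTC8 at 0.56. Just outside by adjusted p, at a larger change, were IFT74 (0.71) and IFT43 (0.67). Changes of the 35 members called in neither fit ran from -0.25 to 0.71. Of them 29 were above 0, where 57.1% of genes of like level and 49.7% of all genes were. The calls without AllStar replicate 3 rest on 2 control arrays. Leaving out AllStar replicate 1 or 2 as well, so that 1 AllStar array is assumed to vary like the mimic arrays, gave 0 called members against AllStar.

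The members did not read equally high on the 6 mimic arrays. The members' median difference from AllStar replicates 1 and 2 lay between 0.26 and 0.34 on the Qmimic arrays and between 0.27 and 0.47 on the Dmimic arrays, where genes of like level lay between 0.00 and 0.04. Dmimic replicate 3 was the highest of its group for 32 of 44 members (72.7%), against 39.3% of all genes. Qmimic replicate 1 was the highest of its group for 26 members (59.1%), against 38.3% of all genes. These were also the arrays with the lowest AXL signal of their groups: on the dimmer AXL probe set Qmimic replicate 1 read 7.81, against 8.31 and 8.36 on the other Qmimic arrays, and Dmimic replicate 3 read 7.53, against 8.16 and 8.38 on the other Dmimic arrays. The same arrays also had the highest difference between 3' and 5' GAPDH probe sets, a sign of RNA quality, in their groups. It was 0.20 on Qmimic replicate 1, with 0.19 to 0.20 over the Qmimic arrays, and 0.25 on Dmimic replicate 3, against 0.13 and 0.19 on the other Dmimic arrays (log2). For ACTB, Qmimic replicate 1 was the lowest of its group at 0.34, and Dmimic replicates 2 and 3 both read 0.31. With 3 arrays in a group this is a description, and the part of AXL or RNA quality in it was not tested.

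Dmimic and Qmimic were then compared with each other, a contrast that did not serve to choose the list. Its log2 differences use no AllStar array and were the same in both fits. Its intervals and p-values do depend on the AllStar arrays, because the model with 3 groups takes the spread from all arrays fitted. The members' 95% intervals reached a median of 0.32 to either side with all 9 arrays, and 0.19 without AllStar replicate 3. Of the 44 members, 0 passed in either fit, where 0.086% of all genes were higher with Dmimic without AllStar replicate 3, 0.0101% were lower, and with all 9 arrays both shares were 0%. In the fit without AllStar replicate 3, 4 of 44 members had an unadjusted limma p under 0.05 (IFT20, KIF3B, BBIP1 and ARL6). Of all 19775 genes 2308 did, a share no smaller than that of the members. The members' smallest adjusted p was 0.211. With all 9 arrays 0 members had an unadjusted p under 0.05, beside 502 of all genes. Differences, as Dmimic minus Qmimic, ran from -0.13 for BBS4 to 0.34 for IFT43, and 29 of 44 were above 0. Of genes of like level 43.1% were above 0, and of all genes 54.1%. With all 9 arrays the 95% interval lay wholly within a 1.5-fold difference in either direction for 33 members. It reached further for 11, namely IFT22, IFT74, IFT88, IFT43, WDR19, DYNC2LI1, BBS2, BBS7, BBS12, ARL6 and LZTFL1, with bounds as low as -0.68 (IFT74) and as high as 0.83 (DYNC2LI1). In the other fit it lay within 1.5-fold for 41 members and reached further for 3, IFT88, DYNC2LI1 and IFT43 (upper bound 0.72). For these members the intervals hold differences larger than 1.5-fold.

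ARL6 came nearest to a difference between the mimics. It read 6.77, 6.81 and 6.66 with Dmimic, against 6.43, 6.57 and 6.50 with Qmimic, without overlap. The difference was 0.25 (95% interval 0.10 to 0.40, limma adjusted p = 0.211). Although 9 members were called with Dmimic and 3 with Qmimic, none of the 9 passed the test of the difference between the mimics, with adjusted p from 0.452 upwards.

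**Figure D4:**
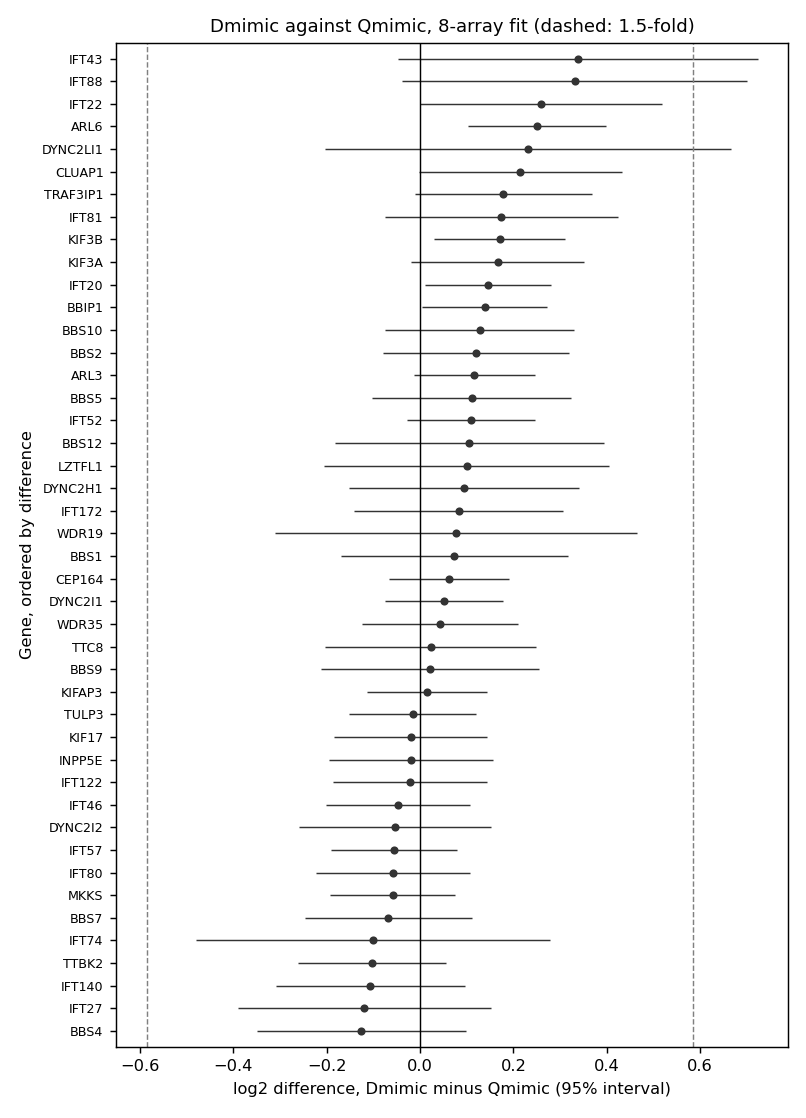
Log2 difference of each member, Dmimic minus Qmimic, with its 95% interval from limma without AllStar replicate 3, ordered by size; dashed lines mark 1.5-fold. The differences run from -0.13 to 0.34 and 0 of 44 were called.

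Probe sets of 1 gene did not always read alike, which limits what a gene's value says of its transcripts. Of the 44 members, 13 had 1 probe set and 31 had several, with 63 further probe sets in all. These 63 had a median change of 0.12 with both mimics without AllStar replicate 3, and 48 were above 0. The 25 of them with a mean log2 signal of 6 or more had a median of 0.16, with 23 above 0, and the 38 dimmer ones a median of 0.11, with 25 above 0. DYNC2LI1 was called on 2 of 4 probe sets. The second of these read 7.78, 7.31 and 6.89 with Qmimic and 7.22, 7.03 and 8.001 with Dmimic, against 5.73, 5.50 and 4.60 with AllStar, a change of 1.76 (limma adjusted p = 0.0114). Its remaining probe sets were at 0.09 and 0.32.

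LZTFL1 was likewise called on 2 of 4 probe sets, the second at 0.76 (limma adjusted p = 0.00781). The second KIF3A probe set was higher by 0.51 (adjusted p = 0.106), and Dmimic replicate 2 read 6.45 on it, between AllStar replicate 1 (6.51) and replicate 2 (6.41). A second CLUAP1 probe set was higher by 0.43 (adjusted p = 0.0166) and another was at -0.01. WDR19 had further probe sets at 0.66 (adjusted p = 0.0679) and 0.13. The second probe sets of IFT22 and IFT81 were at 0.18 and 0.10, so both calls rest on 1 probe set of 2, while IFT88 has 1 probe set. A dim second IFT74 probe set was called with Qmimic although the brighter one was not.

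**Figure D5:**
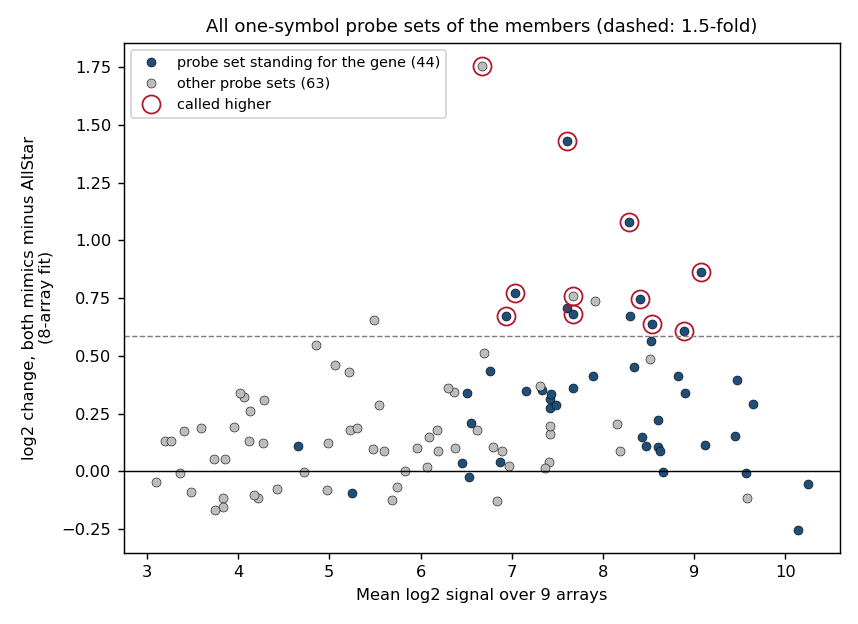
Log2 change with both mimics without AllStar replicate 3 against mean log2 signal for the 107 probe sets of the members; dark points stand for their gene, grey points are the others, red rings are called and the dashed line marks 1.5-fold. The 11 called probe sets belong to 9 genes, and DYNC2LI1 and LZTFL1 each have 2.

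Other genes of the primary cilium were set beside the members. Of 80 listed genes of the transition zone, basal body, membrane trafficking and further transport subunits, 71 were measured, and 0 were called with all 9 arrays. Once AllStar replicate 3 was left out, 1 of 71 (1.41%) was called over both mimics, against 0.597% of all genes. It was ARMC9, a gene of the ciliary base and tip, at 2.00-fold (limma adjusted p = 0.0275), and it was also the 1 called with Dmimic, where 0.622% of all genes were. CEP19, a centriolar protein that helps to start intraflagellar transport, was the 1 called with Qmimic (1.41%, against 0.44% of all genes), at 1.52-fold (adjusted p = 0.011). By adjusted p alone, 5 of 71 (7.04%) passed upwards over both mimics, against 2.49% of all genes. Their median change with both mimics was 0.11, against 0.34 for the 44 members, and groups did not overlap upwards in 28 of 71 (39.4%), against 14.8% of all genes. By group, the medians were 0.21 over 12 further transport and BBS-linked genes, 0.18 over 22 transition zone genes, 0.10 over 18 membrane trafficking genes and -0.04 over 19 basal body and assembly genes. The difference between these lists and the members was not tested.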

How the data were processed

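Total RNA of 9 wells was hybridised to 1 HG-U133 Plus 2.0 array each, and arrays give no depth, so their number limits the precision. The authors deposited RMA-normalised log2 values, per the submitters' processing notes and the series text, which also name limma, with no versions given. The 62 control probe sets were set aside and the other 54613 tested with no filter on low values. In limma 3.58.1 under R 4.3.3, 1 model with 3 groups was fitted, with moderated statistics (eBayes) and Benjamini-Hochberg adjustment over all tested probe sets, on all 9 arrays and without AllStar replicate 3. Calls needed an adjusted p under 0.05 and 1.5-fold. By rule, values by array are given for members called in any comparison, and others by range and count with the highest and lowest of each subcomplex. DYNC2I1, TTC8, ARL6 and further uncalled members given singly were picked after their values were seen. The members, gene lists and tests were chosen with earlier results of these data known. The steps were tested on simulated data. Arrays were not paired by replicate number in the main fits: 3 of 9 same-number pairs correlated above 0.1 (range -0.275 to 0.219). With 3 arrays in a group and AllStar replicate 3 unlike the rest, this cannot settle whether the numbers pair the arrays. Alternatives were a replicate block, other thresholds, normalisations, weights and filters, the mean of all probe sets of a gene, and leaving out each array. Promoter windows of 300 bases and the microRNA are from RefSeq tables on GRCh38.p14.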

Additional observations from a re-analysis of the deposited data

How the results depend on the processing

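The members' medians and the changes of the 9 named genes kept their direction under every alternative run. Members called, with the reported count first: with all 9 arrays Qmimic versus AllStar gave 0, and 3 under cyclic loess and 9 under array weights. Dmimic versus AllStar gave 0, and 2 under repeated quantile normalisation, 6 under cyclic loess and 12 under array weights. Both mimics gave 3, and 0 with the replicate block or median centring and 1 with a log2 change of at least 1.5. Both mimics gave 6 under quantile normalisation, 9 under cyclic loess and 12 under array weights. The weights were 5.17 for AllStar replicate 2, 0.90 for replicate 1 and 0.06 for replicate 3. The weighted counts thus rest mostly on 1 control array. The share of all genes called was worked out for the main fits and for adjusted p alone. For every other alternative in this section, before and after this point, it was not. Those counts therefore cannot be set against a change in calls over all genes. Leaving out 1 array gave 0 to 3 for Qmimic, 0 to 9 for Dmimic and 0 to 9 for both, each upper value without AllStar replicate 3. In the fit without that array the replicate block gave 0 for Qmimic, 0 for Dmimic and 3 for both. Whether the replicate numbers pair the arrays is not settled. A log2 change of at least 1.5 gave 0 for Qmimic, 1 for Dmimic and 0 for both, and adjusted p alone gave 8, 16 and 18. Qmimic gave 6 under median centring and 5 with an intensity trend. Leaving out a further array gave 0 to 6 for Qmimic, 0 to 13 for Dmimic and 0 to 11 for both. It gave 0 for all 3 without AllStar replicate 1 or 2, whose lone partner was assumed to vary like the mimic arrays. For Qmimic it gave 1 when Qmimic replicate 1 was dropped, 0 when Qmimic replicate 2 was, and 6 when Dmimic replicate 3 was, and for Dmimic it gave 4 when Qmimic replicate 2 was. It gave 4 for both without Qmimic replicate 1 or 2. The members' median ranged from 0.24 to 0.34 for Qmimic and from 0.26 to 0.36 for both when a further array was left out. Dmimic versus Qmimic gave 0 calls under each setting. For the 9 named genes with all 9 arrays, the 3 called results stayed called in 23 of 57 settings and lost the call in 34, and the 24 not called gained a call in 62 of 474, over log2 changes of 0.34 to 2.03. Without AllStar replicate 3, the 21 called results stayed called in 225 of 336 settings and lost the call in 111, and the 6 not called gained one in 8 of 96, over 0.39 to 1.72, with adjusted p from 0.00223 to 0.463. That alternatives inside the fit without AllStar replicate 3 were run beside the planned ones was decided after the data were seen. The causes of these changes were not tested. Members near the lowest signals, such as BBS5 and KIF17, are limited by signal over background.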
